A study of Mus musculus and Homo sapiens with 22 samples.

Results

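Purified RNA from chromatin, nucleoplasm and cytoplasm of V6.5 mouse embryonic stem (mES) cells was refolded and its flexibility was mapped nucleotide by nucleotide. A transcript was included when at least 100 of its nucleotides had a score in all 3 files. This held for 942 transcripts, which are 63.0% of the 1495 present in all 3 files and 7.81% of the 12061 present in any. The other 553 transcripts present in all 3 files had fewer than 100 such nucleotides. All comparisons used the same 860304 nucleotides, with a median of 446 per transcript and a range of 100 to 12617.

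The assay, icSHAPE, uses the reagent NAI-N3, which acylates the 2′-hydroxyl of nucleotides whose backbone can move. Unpaired nucleotides react more than base-paired ones, and the score runs from 0 (unreactive) to 1 (most reactive). Inside cells, reactivity also depends on bound proteins, helicases and ribosomes. In refolded RNA these are gone, and the sequence present, its chemical marks, the isoform and the measurement itself remain. Chromatin-associated RNA is known to include nascent and retained nuclear transcripts, nucleoplasm RNA to include released and processed nuclear RNA, and cytoplasm RNA to include mature mRNA under translation.

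Per the labels' protocols, RNA was extracted after fractionation, denatured at 95 °C for 1 min, cooled, kept for 5 min in a folding buffer with NaCl at 100 mM, HEPES at 100 mM and MgCl2 at 6 mM, and then treated with NAI-N3 for 5 min at 37 °C. Chromatin, nucleoplasm and cytoplasm RNA were treated in this way, with 1 sample each. The mES fractions treated with NAI-N3 in living cells, and refolded RNA of the human embryonic kidney line HEK293, fractionated likewise, are given beside them where stated. V6.5 is a single cell line, and no genetic change is named for these samples. A solvent control (DMSO) of each compartment entered both the in vivo and the in vitro scores, per the study's design text.

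With 1 sample per compartment there is no replicate check, and no test between compartments was run. Percentages of transcripts carry exact Clopper-Pearson 95% intervals. These cover the counting of transcripts only and are too narrow, since transcripts share genes and sequence. The files do not pair transcript identifiers with gene names, so transcripts are given by identifier, the compartment labels were checked against no marker gene, and no sequence is shown.

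The 3 files differed in how much they covered. Across the included transcripts, the median share of a transcript's length that was scored was 54.7% in chromatin, 90.3% in nucleoplasm and 88.5% in cytoplasm. The deposited abundance signal (unit not stated in the labels or headers) had a median of 24.0 in chromatin, 89.5 in nucleoplasm and 111 in cytoplasm. This signal of bulk fractions cannot tell fewer cells from less RNA per cell. Chromatin thus set most of the limits on what could be compared. Of the nucleotides scored in both nucleoplasm and cytoplasm, 50.2% were also scored in chromatin, whereas 99.6% of those scored in both chromatin and cytoplasm were also scored in nucleoplasm.

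The compared nucleotides differed most between compartments at the bottom of the scale. A score of exactly 0 was held by 41.4% of them in chromatin, 25.3% in nucleoplasm and 39.8% in cytoplasm. Low scores above 0 and below 0.25 took 32.1% in chromatin, 46.4% in nucleoplasm and 35.4% in cytoplasm. The highly reactive end was much more even: scores of at least 0.5 made up 12.7% in chromatin, 13.5% in nucleoplasm and 12.5% in cytoplasm. Scores of exactly 1 made up 3.81% in chromatin, 4.15% in nucleoplasm and 4.23% in cytoplasm. Nucleoplasm therefore had fewer zeros and more weak scores on the same nucleotides, with a similar share of strong ones.

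**Figure D1:**
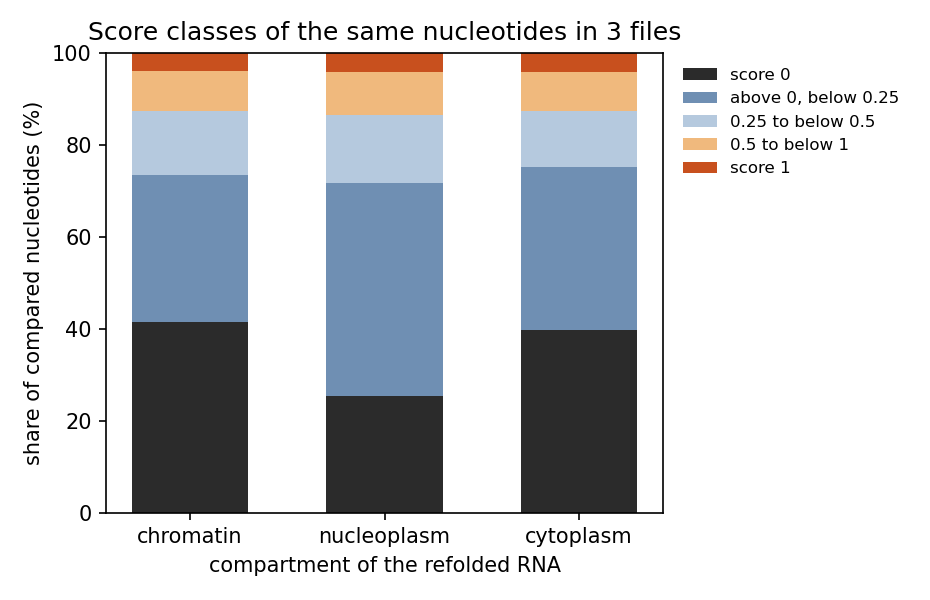
Share of the 860304 compared nucleotides (vertical axis, percent) in each score class for refolded RNA of chromatin, nucleoplasm and cytoplasm. The zero class takes 41.4% in chromatin, 25.3% in nucleoplasm and 39.8% in cytoplasm, while the classes from 0.5 upward are of similar height.

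Zeros were often not shared. All 3 files read 0 at 14.0% of nucleotides, and none did at 40.6%. Only chromatin read 0 at 13.0% of nucleotides, where the mean score was 0.153 in nucleoplasm and 0.171 in cytoplasm. A zero in cytoplasm alone was seen at 10.8%, where the mean was 0.218 in chromatin and 0.175 in nucleoplasm, whereas a zero in nucleoplasm alone was seen at 2.52%. Among transcripts, a larger zero share went with a lower abundance in the same file relative to the other file. Pearson's r between the difference in percent zero and the log2 abundance ratio was -0.62 for chromatin minus nucleoplasm, -0.68 for chromatin minus cytoplasm and -0.44 for nucleoplasm minus cytoplasm, over 942 transcripts that share the same files. The part of abundance in the differences below was not tested beyond the values given beside them.

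Because zeros, scale and ranks differ between files, each comparison was made in 3 ways: on deposited scores, on ranks, and on nucleotides above 0 in all 3 files. A rank is the percentile of a score among all scored nucleotides of its own file, so it also depends on which other transcripts that file holds. By this construction a score of 0 took the percentile 20.8 in chromatin, 19.1 in nucleoplasm and 23.9 in cytoplasm. Of the 942 transcripts, 887 had the 50 nucleotides above 0 that the last treatment required and 55 did not.

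Chromatin scores were mostly below nucleoplasm scores. The mean deposited score over transcripts was 0.170 in chromatin and 0.184 in nucleoplasm, and chromatin was the higher in 268 of 942 transcripts (28.5%, interval 25.6 to 31.4), with a median difference of -0.0146. Among all 1737 transcripts with 100 nucleotides scored in this pair of files, 28.7% were higher in chromatin, close to the share among the included transcripts. On ranks, chromatin was higher in 20.6% (interval 18.1 to 23.3), with a median difference of -3.39 percentile points, against a background of 30.5%. On nucleotides above 0, chromatin was higher in 42.3% (interval 39.0 to 45.6), with a median difference of -0.0078, against a background of 46%. The direction was the same in these 3 treatments, but it turned to 55.3% higher in chromatin on ranks among the compared nucleotides alone and to 54.2% after each score was divided by its file mean.

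Chromatin and cytoplasm were nearly balanced on deposited scores. The mean over transcripts was 0.170 in chromatin and 0.173 in cytoplasm, and chromatin was higher in 456 of 942 transcripts (48.4%, interval 45.2 to 51.7), with a median difference of -0.00092. The background of this pair was 48.6%, over the same 942 transcripts and all nucleotides scored in the pair. Ranks gave another picture, with chromatin higher in 17.3% (interval 14.9 to 19.9) and a median difference of -4.52 percentile points, against a background of 17.7%. Nucleotides above 0 again gave a near balance, with chromatin higher in 52.8% (interval 49.4 to 56.1), against a background of 55.6%. Which compartment was higher therefore depended on the treatment of the scores.

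Nucleoplasm and cytoplasm changed sides with the treatment. Nucleoplasm had the higher deposited mean in 687 of 942 transcripts (72.9%, interval 70.0 to 75.7), at 0.184 in nucleoplasm and 0.173 in cytoplasm, with a median difference of 0.0131. The background over 5218 transcripts was 66.2%. On ranks nucleoplasm was higher in only 35.5% (interval 32.4 to 38.6), with a median difference of -1.84 percentile points, against a background of 25.8%. On nucleotides above 0 it was higher in 66.1% (interval 62.8 to 69.2), with a median difference of 0.0137, against a background of 50.4%. The 3 shares lay above the background of this pair, which includes these transcripts, and the difference was not tested.

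Most differences were small on the 0 to 1 scale. A difference of more than 0.05 in deposited means was seen in 17 transcripts higher and 81 lower for chromatin minus nucleoplasm, where 1.21% of the background was higher and 8.18% lower by that size. For chromatin minus cytoplasm the counts were 38 higher and 68 lower, with backgrounds of 3.93% and 7.32% over the same 942 transcripts. Nucleoplasm minus cytoplasm had 71 higher and 34 lower, with backgrounds of 3.16% and 4.77%. As shares of the 942 transcripts these were 1.80% and 8.60%, then 4.03% and 7.22%, then 7.54% and 3.61%. The last pair leaned towards nucleoplasm, whereas its background leaned towards cytoplasm.

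**Figure D2:**
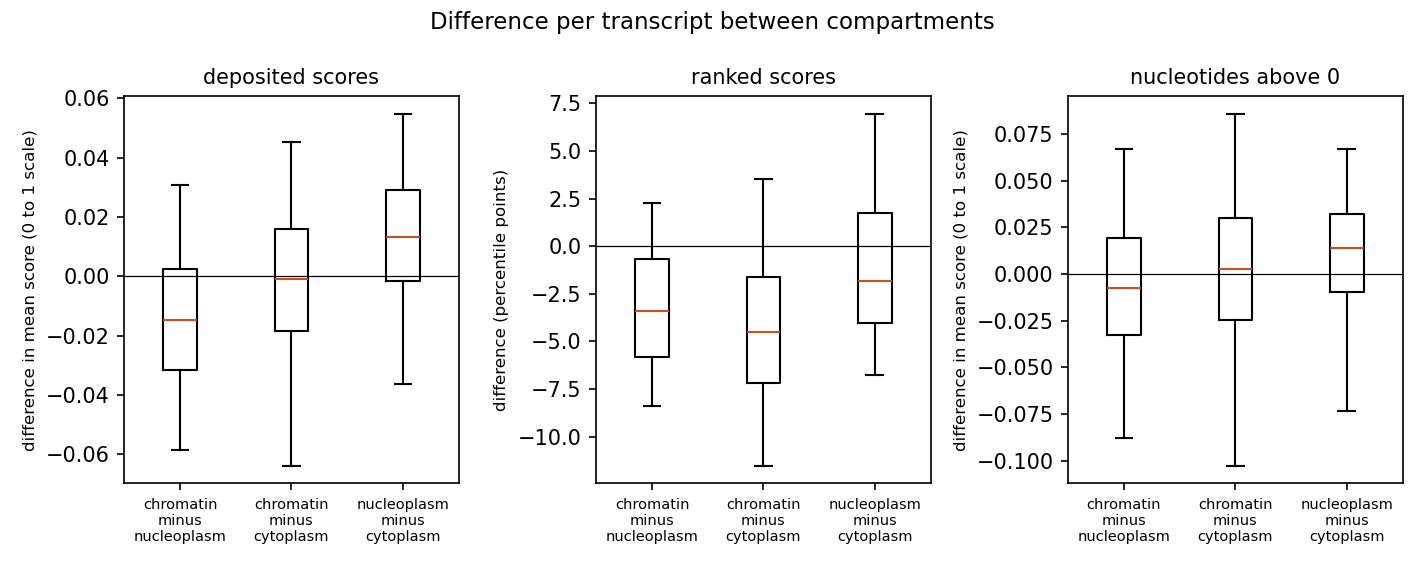
Difference per transcript for the 3 pairs of compartments, on deposited scores (942 transcripts), ranked scores (942 transcripts, percentile points) and nucleotides above 0 (887 transcripts). Boxes span the 25th to 75th percentile with the median as a line, and whiskers reach the 5th and 95th. The median of nucleoplasm minus cytoplasm is above 0 for deposited scores (0.0131) and below 0 for ranks (-1.84).

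Within single transcripts, nucleoplasm held the highest of the 3 deposited means in 552 transcripts (58.6%), chromatin in 201 (21.3%) and cytoplasm in 189 (20.1%). On ranks the highest was cytoplasm in 586 transcripts (62.2%), and chromatin was the lowest in 641 (68.0%). Among nucleotides above 0 the order was the least marked, with nucleoplasm highest in 395 of 887 (44.5%), chromatin in 283 (31.9%) and cytoplasm in 209 (23.6%). The median distance between the highest and lowest mean of a transcript was 0.0311 on deposited scores. A sign that held under all 3 treatments was found in 115 transcripts higher and 458 lower for chromatin minus nucleoplasm, of 887. The same counts were 89 and 353 for chromatin minus cytoplasm, and 260 and 217 for nucleoplasm minus cytoplasm. The remaining 314, 445 and 410 transcripts had a sign that depended on the treatment.

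The sign of a difference was mostly the same on interleaved positions of a transcript. When the difference was computed on odd and on even positions apart, the sign was the same in 85.8% of transcripts for chromatin minus nucleoplasm, 82.1% for chromatin minus cytoplasm and 86.5% for nucleoplasm minus cytoplasm, on deposited scores. Odd and even positions come from the same libraries, are no replicates and do not show whether the direction changes along a transcript. At the threshold of 100 nucleotides, the 43 transcripts with 100 to 119 had means of 0.143 in chromatin, 0.146 in nucleoplasm and 0.147 in cytoplasm. The 55 transcripts just outside, with 80 to 99, had 0.147 in chromatin, 0.157 in nucleoplasm and 0.151 in cytoplasm. Chromatin was above nucleoplasm in 48.8% just inside and 29.1% just outside, so this share differed across the threshold. Chromatin was above cytoplasm in 53.5% and 45.5%, and nucleoplasm above cytoplasm in 62.8% and 60%, in the same order.

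The differences were ordered by transcript length. The included transcripts ran from 137 to 14369 nt, with a median of 1292. For chromatin minus nucleoplasm, chromatin was higher in 51.4% of 70 transcripts under 300 nt, 44.0% of 350 from 300 to below 1000 nt, 25.6% of 160 below 2000 nt, 12.0% of 275 below 5000 nt and 4.60% of 87 from 5000 nt. The longest class had only 4 transcripts higher in chromatin (interval 1.27 to 11.4), with means of 0.181 in chromatin and 0.209 in nucleoplasm. For nucleoplasm minus cytoplasm the same classes gave 58.6%, 59.4%, 74.4%, 85.1% and 97.7% higher in nucleoplasm. The longest class had means of 0.209 in nucleoplasm and 0.174 in cytoplasm. On deposited scores longer transcripts thus stood further apart, with nucleoplasm mostly on the upper side of both pairs from 300 nt.

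The order by length remained in other treatments for the longer classes. On nucleotides above 0, chromatin was above nucleoplasm in 46.3%, 57.0%, 45.8%, 31.7% and 10.3% of transcripts from the shortest to the longest class. Nucleoplasm was above cytoplasm on those nucleotides in 61.1%, 51.5%, 67.3%, 75.8% and 92.0%. Its ranks were above those of cytoplasm in 17.1%, 14.6%, 26.25%, 56.4% and 85.1%, so nucleoplasm was mostly on the upper side only from 2000 nt. On ranks the shortest class stood on the other side of the rest for chromatin minus nucleoplasm, at 88.6% higher in chromatin, against 3.45% in the longest. Those 70 short transcripts fall into 40 families whose members have the same zero and non-zero positions over 60 nt, and with 1 transcript per family the share was 80%. The largest family held 18 transcripts, so near-identical copies are counted several times in this class. Chromatin minus cytoplasm showed no steady order on deposited scores, with 50% in the shortest class, 40% from 2000 to below 5000 nt and 64.4% in the longest.

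**Figure D3:**
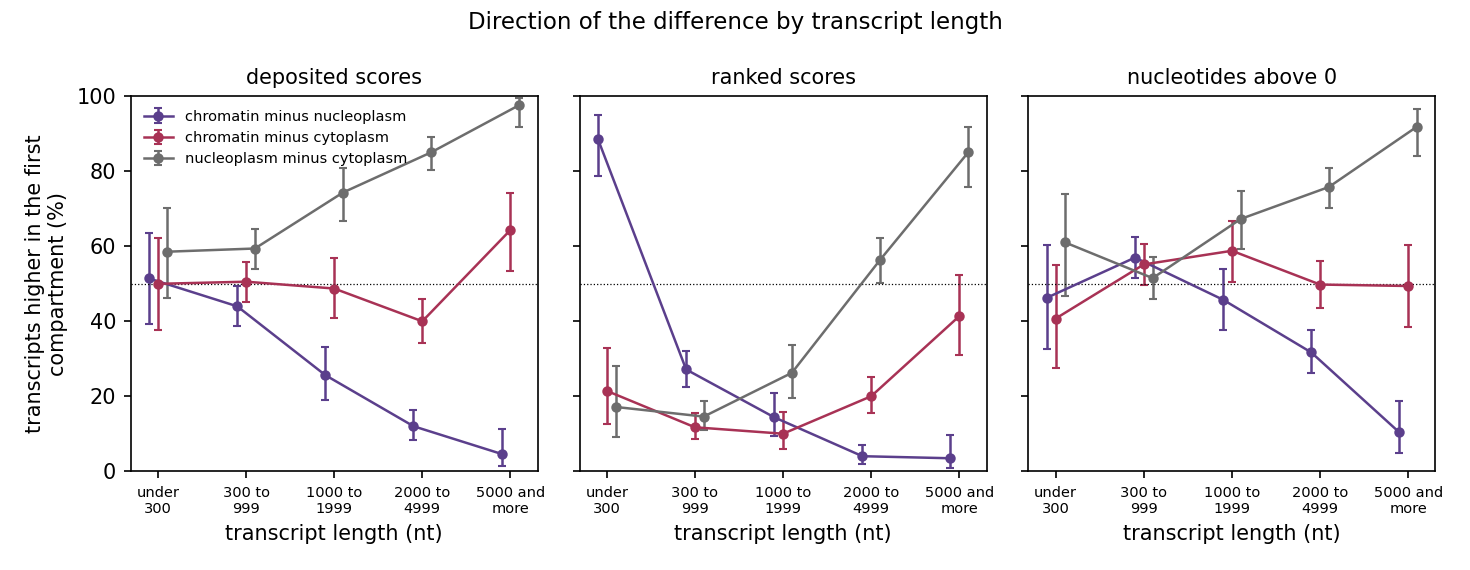
Share of transcripts (vertical axis, percent) in which the first compartment of a pair had the higher mean, by transcript length in 5 classes (70, 350, 160, 275 and 87 transcripts, somewhat fewer above 0), with exact 95% intervals that cover the counting of transcripts only. On deposited scores, chromatin minus nucleoplasm runs downward to 4.60% and nucleoplasm minus cytoplasm upward to 97.7% in the longest class.

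Abundance moved with length too. The median log2 abundance ratio of chromatin to nucleoplasm was -0.16 under 300 nt, -1.71 from 300 nt, -1.84 from 1000 nt, -1.40 from 2000 nt and -1.20 from 5000 nt. For nucleoplasm to cytoplasm it was 4.09 under 300 nt, -0.94 from 1000 nt and 0.27 from 5000 nt. Transcripts under 300 nt had a median abundance of 7542 in chromatin, 7225 in nucleoplasm and 279 in cytoplasm. Of these 70, 31 had their highest abundance in chromatin, against 69 of all 942 included transcripts. Among transcripts from 2000 nt whose abundance values lay within 1.5 times, chromatin was above nucleoplasm in 25.6% of 43, and nucleoplasm was above cytoplasm in 92.0% of 163. Below 2000 nt the same restriction gave 40.8% of 71 for chromatin over nucleoplasm and 69.0% of 84 for nucleoplasm over cytoplasm. On nucleotides above 0, chromatin was above nucleoplasm in 35.7% of 42 such transcripts from 2000 nt and in 39.7% of 63 below it. The intervals of long and short transcripts were 13.5 to 41.2 and 29.3 to 53.2 for chromatin over nucleoplasm on deposited scores. For nucleoplasm over cytoplasm they were 86.7 to 95.7 and 58.0 to 78.7. With ranks, chromatin was above nucleoplasm in 20.9% of the 43 longer and 69.0% of the 71 shorter transcripts. The intervals cover the counting of transcripts only, so a distance by length at similar abundance was not tested.

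The ranked comparisons moved with abundance, though not evenly. Pearson's r between the rank difference and the log2 abundance ratio was 0.37 for chromatin minus nucleoplasm, 0.52 for chromatin minus cytoplasm and 0.33 for nucleoplasm minus cytoplasm, over 942 transcripts that share the same files. Where chromatin's abundance was far below cytoplasm's (log2 ratio under -2), chromatin ranked higher in 2.05% of 438 transcripts. Where the log2 ratio lay from 0 to 1, it ranked higher in 53.7% of 54, and above 1 in 40% of 95. On deposited scores these 3 classes gave 40.9%, 66.7% and 60%, and on nucleotides above 0 they gave 57.5%, 58% and 40.5%. With abundance within 1.5 times, ranks put chromatin above nucleoplasm in 50.9% of 114 transcripts, chromatin above cytoplasm in 63.6% of 107 and nucleoplasm above cytoplasm in 62.8% of 247. These pooled shares differ by length. Below 2000 nt they were 69.0% of 71, 41.9% of 43 and 36.9% of 84, and from 2000 nt 20.9% of 43, 78.1% of 64 and 76.1% of 163, in the same order of pairs. At similar abundance the direction of the whole set thus remained in some length classes and not in others.

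Position along the transcript separated chromatin from the other compartments. This contrast was chosen after values had been seen. It used 153 transcripts of at least 1000 nt with at least 20 compared nucleotides both in the first 100 nt and in the last 200 nt, of which the last 30 carry no score. In the first 100 nt the mean score was 0.203 ± 0.085 in chromatin, 0.257 ± 0.105 in nucleoplasm and 0.242 ± 0.105 in cytoplasm (SD over 153 transcripts, not replicates). In the last 200 nt it was 0.173 ± 0.057 in chromatin, 0.151 ± 0.060 in nucleoplasm and 0.135 ± 0.070 in cytoplasm. Chromatin was thus the lowest of the 3 at the 5′ end and the highest at the 3′ end.

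Counted per transcript, chromatin was above nucleoplasm in 13.7% at the 5′ end and in 77.1% at the 3′ end. Among all 272 transcripts scored at both ends in that pair, the shares were 16.5% and 70.6%. Chromatin was above cytoplasm in 24.2% at the 5′ end and 86.9% at the 3′ end. The background of that pair was 23.9% and 86.5%, over 155 transcripts that include these 153 and are nearly the same set. Nucleoplasm was above cytoplasm in 60.8% and 76.5%, with backgrounds of 62.1% and 68.7% over 1187 transcripts. That pair changed sides or came to balance otherwise, with 43.1% and 48.4% on ranks and 49.7% and 65.3% above 0. On nucleotides above 0, chromatin was above nucleoplasm in 16.8% of 143 transcripts at the 5′ end and 81.9% of 144 at the 3′ end. On ranks the shares were 10.5% and 50.3%, so the 3′ end was balanced rather than higher in chromatin.

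Whether scores declined from 5′ to 3′ within a file does not depend on the scale of another file, on deposited scores and on ranks. A median gap is in the units of its own file, and nucleotides above 0 are chosen over all 3 files. In chromatin the first 100 nt exceeded the last 200 nt in 66.7% of the 153 transcripts (interval 58.6 to 74.1), with a median gap of 0.0268. In nucleoplasm this held for 84.3% (interval 77.6 to 89.7), with a median gap of 0.0962, and in cytoplasm for 83.0% (interval 76.1 to 88.6), with a median gap of 0.0935. On ranks the shares were 62.7% in chromatin, 85.6% in nucleoplasm and 79.7% in cytoplasm. With nucleotides above 0 they were 56.6%, 82.4% and 78.7% of 136 transcripts. The share of transcripts with the higher 5′ end was thus the lowest in refolded chromatin RNA under each treatment. Whether its lower abundance signal has a part in this was not tested.

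The decline could be followed over 10 equal segments in 116 transcripts with at least 20 compared nucleotides in each. In the first, the fifth and the last segment the mean score was 0.222, 0.195 and 0.190 in chromatin. The same segments had 0.269, 0.212 and 0.173 in nucleoplasm, and 0.244, 0.185 and 0.153 in cytoplasm. Chromatin was above nucleoplasm in 6.90% of transcripts in the first segment, 26.7% in the fifth and 66.4% in the last. Percent zero in chromatin was 35.4% in the first segment and 40.2% in the last, while in nucleoplasm it was 20.1% and 28.8%, and in cytoplasm 34.5% and 43.4%. The mean scores therefore changed along the transcript, with their largest steps at the outermost segments. The share of chromatin over nucleoplasm moved otherwise at the 5′ end, with 11.2% in the second segment and 26.7% in the third. It was 43.1% in the segment before the last.

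**Figure D4:**
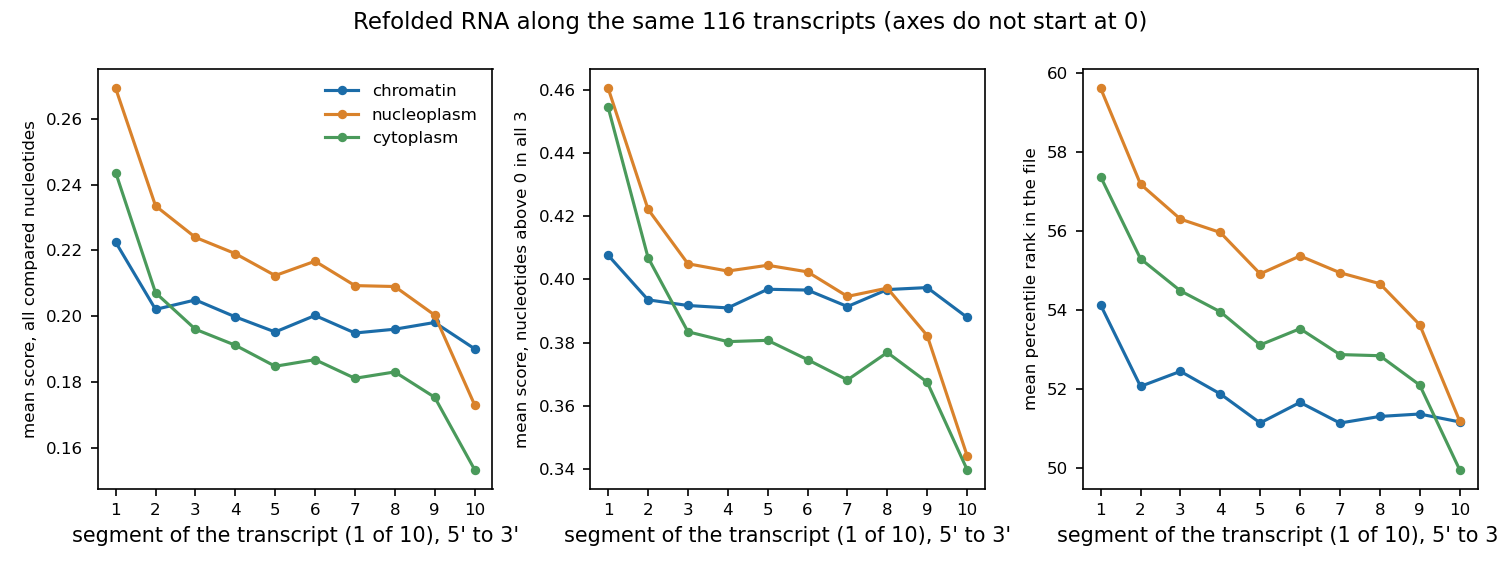
Mean over 116 transcripts in 10 equal segments of the transcript from 5′ to 3′ (horizontal axis) in refolded RNA of chromatin, nucleoplasm and cytoplasm. Panels show the score on all compared nucleotides, the score on nucleotides above 0 in all 3 files, and the percentile rank, with vertical axes that do not start at 0. The chromatin line is the flattest, and on all compared nucleotides it is lowest in the first segment (0.222) and highest in the last (0.190).

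The end contrast was repeated at similar abundance. Among 15 of the 153 transcripts whose chromatin and nucleoplasm abundance lay within 1.5 times, chromatin was above nucleoplasm in 26.7% at the 5′ end and 86.7% at the 3′ end. Among 22 with chromatin and cytoplasm within 1.5 times, chromatin was above cytoplasm in 36.4% and 90.9%. The contrast also appeared in 66 transcripts below 2000 nt, with 15.2% and 78.8% for chromatin over nucleoplasm, and in 87 longer ones, with 12.6% and 75.9%. These subsets are small, and each shows a higher share for chromatin at the 3′ end than at the 5′ end. On ranks the 15 gave 20% and 80% for chromatin over nucleoplasm, and the 22 gave 54.5% and 77.3% for chromatin over cytoplasm. Chromatin was not the lowest at the 5′ end of the 15, with means of 0.231 in chromatin and 0.210 in cytoplasm. At the 3′ end of the 22, chromatin was above nucleoplasm in 54.5%, with means of 0.174 in chromatin and 0.173 in nucleoplasm.

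In living cells, the first 100 nt exceeded the last 200 nt in only a minority of chromatin profiles. The order in nucleoplasm depended on the treatment of the scores. How many single transcripts changed their order between the preparations was not counted. Since the in vivo and in vitro scores of a compartment share a solvent control, their values are only set side by side. In vivo, the first 100 nt exceeded the last 200 nt in 24.8% of the chromatin profiles, 39.9% of the nucleoplasm profiles and 64.1% of the cytoplasm profiles, on the 153 transcripts scored in all 6 mES files. On ranks these shares were 24.2%, 33.3% and 56.2%, and above 0 they were 22.8%, 52.4% and 69.0% of 145 transcripts. The in vivo means in the first 100 nt were 0.213 in chromatin, 0.194 in nucleoplasm and 0.255 in cytoplasm. The last 200 nt had 0.292 in chromatin, 0.217 in nucleoplasm and 0.223 in cytoplasm. Refolded HEK293 RNA had 29 transcripts that allowed the contrast, and there the first 100 nt were higher in 69.0% in chromatin, 37.9% in nucleoplasm and 55.2% in cytoplasm. There the cell line cannot be told apart from the library batch, and the difference was not tested.

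Score profiles along a transcript resembled each other most between nucleoplasm and cytoplasm. The median Pearson r across the compared nucleotides of a transcript was 0.705 for chromatin and nucleoplasm, 0.659 for chromatin and cytoplasm and 0.849 for nucleoplasm and cytoplasm. Nucleoplasm and cytoplasm gave the highest r of the 3 pairs in 720 of 942 transcripts (76.4%), and chromatin and cytoplasm the lowest in 732 (77.7%). The r also moved with the abundance behind the pair. Where the lower of the 2 abundance values was at least 100, the median r was 0.974 for chromatin and nucleoplasm (109 transcripts), 0.944 for chromatin and cytoplasm (87) and 0.943 for nucleoplasm and cytoplasm (342). Where it was under 20, the median r was 0.665 over 380, 0.612 over 386 and 0.657 over 33 transcripts. Between these limits it was 0.712 over 453, 0.671 over 469 and 0.787 over 567 transcripts. Within an abundance class the 3 pairs thus lay closer together than over all transcripts, and the high class of the chromatin pairs was short, with median lengths of 214 and 216 nt.

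Highly reactive nucleotides were shared to a similar degree. Of 109432 nucleotides with a score of at least 0.5 in chromatin, 61.6% also reached it in nucleoplasm and 52.7% in cytoplasm. From the other side, 58.0% of the 116311 such nucleotides in nucleoplasm and 53.6% of the 107651 in cytoplasm also reached it in chromatin. Between nucleoplasm and cytoplasm the shares were 62.0% of the nucleoplasm set and 67.0% of the cytoplasm set. All 3 compartments reached 0.5 at 5.75% of nucleotides, while 3.92% reached it in chromatin alone, 3.05% in nucleoplasm alone and 3.18% in cytoplasm alone. Few of the nucleotides that reached 0.5 in a single compartment were at 0 in both others. These were 1162 of 33737 for chromatin, 1014 of 26212 for nucleoplasm and 1049 of 27340 for cytoplasm. As shares of all compared nucleotides they made up 0.135%, 0.118% and 0.122%.

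The gap between compartments differed with the score of a nucleotide in the file not in the pair. At nucleotides with a score of 0 in cytoplasm, the mean was 0.0758 in chromatin and 0.0720 in nucleoplasm. At those with a score of 1 in cytoplasm, it was 0.734 in chromatin and 0.847 in nucleoplasm. For the pair of chromatin and cytoplasm, nucleotides at 0 in nucleoplasm had 0.0437 in chromatin and 0.0335 in cytoplasm, and those at 1 had 0.801 in chromatin and 0.841 in cytoplasm. Chromatin was thus above its partner at nucleotides with a score of 0 in the third file and below it at those with 1. The third file resembled the partner (median r 0.849) more than chromatin (0.659 for cytoplasm, 0.705 for nucleoplasm). Whether the gap depends on reactivity itself was not tested. Nucleoplasm was above cytoplasm in every class of chromatin score, at 0.0719 and 0.0649 for a chromatin score of 0 and at 0.838 and 0.764 for a chromatin score of 1.

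Windows of 20 nt located the largest local departures. A window was counted when 1 compartment lay at least 20 percentile points above or below both others, which lay within 10 points of each other. Of 39242 windows in the 942 transcripts, 442 (1.13%) in 244 transcripts met this, and 58.5% had all 3 compartments within 10 points. Chromatin was the low compartment in 221 windows (0.563%, against a background of 0.582% over 40223 windows of all transcripts with 20 nt scored in the 3 files). The background windows include the 39242 and are nearly the same set, so the window shares lie close to their backgrounds by construction. The 221 windows had a mean score of 0.129 in chromatin, 0.344 in nucleoplasm and 0.339 in cytoplasm, and 53.0% of their nucleotides were 0 in chromatin. Cytoplasm was the low compartment in 155 windows (0.395%, background 0.385%), with means of 0.297 in chromatin, 0.296 in nucleoplasm and 0.124 in cytoplasm, and 70.5% of nucleotides at 0 in cytoplasm. These 155 windows lay in 55 transcripts, and the median abundance over windows was 54.0 in chromatin, 84.8 in nucleoplasm and 28.9 in cytoplasm.

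High windows were fewer. Chromatin was high in 32 windows (background 0.0845%), nucleoplasm in 24 (background 0.0597%) and cytoplasm in 9 (background 0.0273%). Nucleoplasm was the low compartment in 1 window (background 0.00249%). The 32 windows high in chromatin had means of 0.270 in chromatin, 0.0382 in nucleoplasm and 0.0236 in cytoplasm, and lay at a median of 74.4% of the transcript's length, against 48.6% for all windows. The 221 windows low in chromatin lay at a median of 40.7%. Windows high in chromatin were therefore placed further towards the 3′ end than windows low in it.

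Coding regions are known to show a period of 3 nt in reactivity profiles, following the codon. The power at that period relative to the average of 24 neighbouring frequencies was computed for 431 transcripts with at least 500 compared nucleotides. A ratio above 5 was found in 18.1% of them in chromatin, 28.3% in nucleoplasm and 20.4% in cytoplasm, and in all 3 files in 52 transcripts (12.1%). At the control frequencies of 0.24 and 0.43 per nt the share above 5 was at most 2.09%. The ratio was higher in chromatin than in nucleoplasm in 36.9% of transcripts (interval 32.3 to 41.6), higher in chromatin than in cytoplasm in 46.9% (interval 42.1 to 51.7), and higher in nucleoplasm than in cytoplasm in 61.7% (interval 56.9 to 66.3). The period was present in refolded RNA, and most often in nucleoplasm, the file with the fewest zeros.

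The Gini index, which is 0 for scores spread evenly over a transcript, described how concentrated they were. Its median was 0.706 in chromatin, 0.657 in nucleoplasm and 0.704 in cytoplasm, and chromatin exceeded nucleoplasm in 87.6% of transcripts. On nucleotides above 0 in all 3 files the medians were 0.442 in chromatin, 0.449 in nucleoplasm and 0.467 in cytoplasm, and chromatin exceeded nucleoplasm in 47.9% of 887. The unevenness of chromatin profiles relative to nucleoplasm was thus seen with zeros counted and not without them. Cytoplasm was the most uneven above 0, where chromatin exceeded it in 26.3% of transcripts and nucleoplasm in 24.5%.

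Single transcripts departed much further than the medians. Those named here had the extreme differences among transcripts whose sign held under all 3 treatments and on odd and even positions. ENSMUST00000150946, of 484 nt, was compared over 148 nt in 1 stretch from position 307 to 454. Its mean score was 0.224 in chromatin, 0.0452 in nucleoplasm and 0.0707 in cytoplasm, the largest chromatin excess over both others. The profiles kept their peaks, with r of 0.781 for chromatin and nucleoplasm, 0.795 for chromatin and cytoplasm and 0.958 for nucleoplasm and cytoplasm. On its 73 nucleotides above 0 the means were 0.407 in chromatin, 0.0858 in nucleoplasm and 0.137 in cytoplasm, at abundances of 36.4, 155 and 86.8. Chromatin scores were thus higher on the nucleotides that reacted in all 3 files, and zeros made up 29.7% in chromatin, 18.9% in nucleoplasm and 36.5% in cytoplasm.

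ENSMUST00000131374, of 3721 nt, showed the largest departure of cytoplasm. Over 110 nt in 4 stretches between positions 24 and 467, its mean score was 0.0855 in chromatin, 0.0841 in nucleoplasm and 0.359 in cytoplasm. ENSMUST00000171473, of 1630 nt, was similar over 313 nt from position 7 to 319, with 0.156 in chromatin, 0.160 in nucleoplasm and 0.375 in cytoplasm. Both had their highest abundance in cytoplasm, at 13.8 in chromatin, 26.8 in nucleoplasm and 58.8 in cytoplasm for the first and 13.0, 19.3 and 47.4 for the second. In both, chromatin and nucleoplasm lay close together and cytoplasm stood apart. All compared nucleotides lay in the 5′ part of these transcripts, so nothing further towards the 3′ end could be compared.

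**Figure D5:**
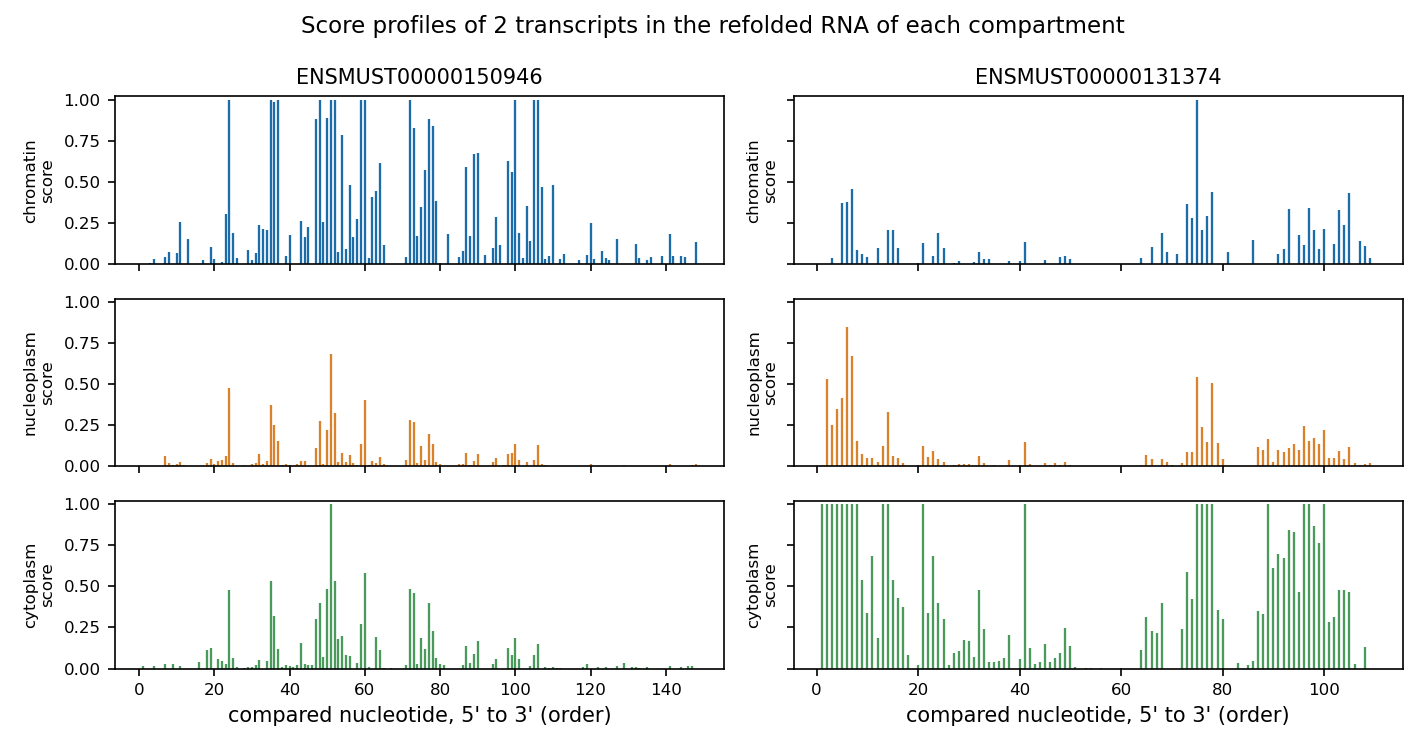
Score of each compared nucleotide (vertical axis, 0 to 1) in order from 5′ to 3′ for ENSMUST00000150946 (148 nt in 1 stretch) and ENSMUST00000131374 (110 nt from 4 stretches, drawn side by side) in refolded RNA of chromatin, nucleoplasm and cytoplasm. The first is tallest in chromatin (mean 0.224) and the second in cytoplasm (mean 0.359).

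ENSMUST00000038863, of 3881 nt, had the lowest chromatin score relative to nucleoplasm. Over 413 nt in 1 stretch from position 3004 to 3416, its mean was 0.0776 in chromatin, 0.253 in nucleoplasm and 0.147 in cytoplasm, at high abundances of 2839, 1274 and 7064. It also had the largest excess of nucleoplasm over cytoplasm. Zeros were at similar shares in this transcript (20.1% in chromatin, 15.0% in nucleoplasm, 18.4% in cytoplasm), and r lay between 0.823 and 0.923, so the profiles differed mostly in height. ENSMUST00000138887 was also lower in chromatin, with 0.152 in chromatin, 0.294 in nucleoplasm and 0.208 in cytoplasm, and its chromatin profile was unlike the others (r of 0.376 with nucleoplasm and 0.318 with cytoplasm).

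On deposited scores, the remaining named transcripts had their highest mean in a nuclear fraction. ENSMUST00000118047 had 0.191 in chromatin, 0.0968 in nucleoplasm and 0.127 in cytoplasm. It was named for chromatin minus nucleoplasm only. On ranks its highest mean was in cytoplasm, with a percentile of 55.8 in cytoplasm and 55.2 in chromatin. ENSMUST00000110399 had 0.176 in chromatin, 0.101 in nucleoplasm and 0.0782 in cytoplasm. ENSMUST00000185928 had 0.191 in chromatin, 0.231 in nucleoplasm and 0.136 in cytoplasm. Each of these was compared over 125 to 225 nt, a short stretch beside the median of 446.

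The mES fractions probed in living cells had another order on the same nucleotides when deposited scores were used. On 937 transcripts scored in all 6 mES files, chromatin was above nucleoplasm in 28.6% of transcripts in refolded RNA and in 84.6% in vivo. Chromatin was above cytoplasm in 48.3% in refolded RNA and 69.1% in vivo. Nucleoplasm was above cytoplasm in 72.8% in refolded RNA and 25.1% in vivo. On ranks, chromatin over nucleoplasm was 20.7% in refolded RNA and 59.9% in vivo, and chromatin over cytoplasm 17.1% in refolded RNA and 51.0% in vivo. Nucleoplasm over cytoplasm was 35.1% in refolded RNA and 47.6% in vivo on ranks, below an even split in both, so the order of the preparations depended on the treatment of the scores. Mean scores of refolded RNA were 0.170 in chromatin, 0.184 in nucleoplasm and 0.173 in cytoplasm, against 0.232, 0.193 and 0.206 in vivo. The chromatin file held 41.4% zeros in refolded RNA and 14.3% in vivo on these nucleotides, so the place of chromatin in the order and its share of zeros both differed between the preparations.

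Refolded HEK293 RNA, selected in the same way, gave 681 transcripts. Chromatin was above nucleoplasm in 28.5% of transcripts in mES cells and 17.3% in HEK293. Chromatin was above cytoplasm in 48.4% in mES cells and 28.5% in HEK293, and nucleoplasm above cytoplasm in 72.9% in mES cells and 58.3% in HEK293. Mean scores in HEK293 were 0.187 in chromatin, 0.224 in nucleoplasm and 0.214 in cytoplasm. Nucleoplasm had the highest mean and the fewest zeros in both cell lines, with zeros in HEK293 at 24.9% in chromatin, 14.5% in nucleoplasm and 20.4% in cytoplasm. Different rRNA removal kits and sequencers were used for the cell lines, per the labels' protocols, and the difference was not tested.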

How the data were processed

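The authors deposited icSHAPE files with a line per transcript: its identifier and length, an abundance signal (unit not stated), and a score per nucleotide, which is a fraction from 0 to 1 or missing. For the score formula, the reads behind each file and any pooling of replicates, nothing is given in the sources used here; about 200000000 reads per replicate are stated per the labels' protocols. The submitters' processing notes name Bowtie2 and UMI-tools, without versions, and the builds mm10 and hg38.

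Means per transcript were taken over nucleotides scored in all 3 files, for transcripts with at least 100 (Python 3.11.15, NumPy 2.4.6, SciPy 1.17.1, matplotlib 3.10.9). Ranks were percentiles within a file, with ties averaged. The above-0 means needed 50 nucleotides. Missing scores cover the first 6 and last 30 nt of every transcript. Transcripts with the same zero and non-zero positions over 60 nt formed a family. Backgrounds were all transcripts with 100 nucleotides scored in the pair of files, the included transcripts among them. Named transcripts were the 2 with the largest and the 2 with the smallest deposited difference of each pair, among those whose sign held with deposited scores, ranks, nucleotides above 0 and odd and even positions. Members and lists were chosen with earlier results of these data known. Gene lists and markers could not be applied because no table used here pairs the transcript identifiers with genes. The steps were checked on simulated data. Scaling, minimum coverage, ends, families, length and abundance were varied as alternatives.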

Additional observations from a re-analysis of the deposited data

Results flagged for a closer look

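With ranks over all nucleotides of a file, both comparisons that involve chromatin lay on opposite sides of an even split in the cell lines. Chromatin ranked above cytoplasm in 17.3% of refolded mES transcripts and in 63.6% of refolded HEK293 transcripts. Chromatin ranked above nucleoplasm in 20.6% of refolded mES transcripts and in 60.5% of HEK293 transcripts. They were picked out for that reason. The difference was not tested, with 1 sample per compartment and cell line, and the cell line cannot be told apart from the library batch. The mES shares depend on the setting: ranks among the compared nucleotides alone put chromatin over nucleoplasm at 55.3%, and abundance within 1.5 times put ranked chromatin over cytoplasm at 63.6% and over nucleoplasm at 50.9%. On deposited scores both cell lines lay on the same side, at 48.4% and 28.5% for mES chromatin over cytoplasm and over nucleoplasm, and at 28.5% and 17.3% in HEK293.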

How the results depend on the processing

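Values are the percent of transcripts higher in the first compartment. On deposited scores, chromatin over nucleoplasm (28.5%) was 20.6% on file ranks, 42.3% above 0, 38.0% as the share of nucleotides at 0.5 or more, 25.1% without 100 nt at each end, 33.4%, 24.4% and 15.3% with at least 50, 200 and 500 nucleotides, and 35.1% at abundance within 1.5 times; it turned to 55.3% on ranks among the compared nucleotides and 54.2% after division by the file mean. Chromatin over cytoplasm (48.4%) was 17.3% on file ranks, 30.1% on ranks among the compared nucleotides, 52.8% above 0, 39.4% after division by the file mean, 51.7% with at least 500 nucleotides and 71.0% at similar abundance. Nucleoplasm over cytoplasm (72.9%) turned to 35.5% on file ranks, 24.9% on ranks among the compared nucleotides and 31.8% after division by the file mean, and was 66.1% above 0, 59.9% at 0.5 or more, 66.2% on nucleotides of the pair, 75.9% without the ends, 69.1%, 77.8% and 87.7% with at least 50, 200 and 500 nucleotides, and 84.2% at similar abundance.

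On ranks, chromatin over nucleoplasm (20.6%) was 33.0% and 14.3% with at least 50 and 200 nucleotides, 17.5% with 1 transcript per family and 50.9%, near balance, at similar abundance. Chromatin over cytoplasm (17.3%) was 23.3% with at least 50 nucleotides and reversed to 63.6% at similar abundance. Nucleoplasm over cytoplasm (35.5%) was 32.4% and 39.2% with at least 50 and 200 nucleotides and reversed to 62.8% at similar abundance. Above 0, similar abundance gave 38.1%, 48.0% and 75.8% for the 3 pairs; odd positions gave 56.5% for chromatin over cytoplasm and 70.9% for nucleoplasm over cytoplasm, where even positions gave 70.2% and at least 200 nucleotides 69.8%.

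Of the end contrasts, nucleoplasm over cytoplasm in the first 100 nt turned to 43.1% on ranks and 49.7% above 0. In the last 200 nt, ranks gave 48.4% for chromatin over cytoplasm and 48.4% for nucleoplasm over cytoplasm. Of 62 other values that stayed within the main interval, 59 kept their side of an even split; 3, all chromatin over cytoplasm on deposited scores, were at 50% (odd positions) or past it, at 50.5% and 50.2% (at least 50 and 200 nucleotides). The cause of these shifts was not tested, except that ranks and file means depend by construction on the other nucleotides of a file. No paired analysis was possible because each compartment has 1 sample. Depth per file is unknown, and chromatin, the file with the lowest abundance signal and coverage, limits what could be compared.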
